A study of Mus musculus with 2 samples.

Results

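The cyclic AMP (cAMP) response genes described here were 8 genes picked by symbol from the 27998 genes of the count tables: Crem, Nr4a1, Nr4a2, Nr4a3, Rgs2, Pde4b, Pde4d and Areg. Teriparatide, the active N-terminal fragment of parathyroid hormone (PTH), binds the PTH receptor Pth1r, which couples through the stimulatory G protein Gs to adenylyl cyclase. The cAMP formed there activates protein kinase A, which phosphorylates the transcription factor CREB, and CREB switches on genes that carry the cAMP response element (CRE) in their promoters. In cells of the osteoblast lineage this first wave of transcription is known to be brief, and several of its products (the repressor forms of Crem, the PDE4 phosphodiesterases and Rgs2) act to end the signal that induced them.

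The cells came from Gli1-CreERT2; Ai9 mice of mixed background at 1 month of age, in which tamoxifen given once daily for 3 days turns on the red protein tdTomato in Gli1+ cells and in all their progeny. Both groups carried both alleles and received tamoxifen. The mice then had 3 daily injections, intraperitoneal teriparatide at 400 ng per g of body weight in one group and vehicle in the other, and were killed on the day after the last, so that the values describe cells about a day after a dose and not the first hours. Cells that were tdTomato+ but negative for CD31, CD45 and Ter119 were sorted from collagenase-digested metaphyseal bone of the femur and sequenced with the 10x Genomics 3′ chemistry, 1 library per condition. With 1 library per condition there was no replicate and no test, and every 95% interval below covers counting error only, not the difference between mice.

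The vehicle library held 1286 barcodes and 10567335 unique molecular identifiers (UMIs, 1 per captured mRNA molecule), and the teriparatide library 2142 barcodes and 26270041 UMIs. After the limits on genes and mitochondrial reads, 549 and 1217 cells were kept. Their barcodes overlapped in 1 case, and those of all deposited cells in 2. The chondrocyte-like osteoprogenitors (COP-like cells) numbered 66 after vehicle and 265 after teriparatide, the osteoblasts (OB-like) 96 and 93, the preosteoblasts (preOB-like) 62 and 52, and the marrow adipogenic lineage progenitors (MALP-like) 125 and 80. Despite the sort for CD45- and Ter119- cells, clusters with hematopoietic markers held 115 vehicle and 595 teriparatide cells. The libraries also differed in sex: of the OB-like cells with a call from Y-linked genes or Xist, 34.1% were male after vehicle and 94.0% after teriparatide, of the MALP-like cells 43.6% and 89.9%, and of the COP-like cells 82.5% and 90.2%. Per the study's methods each group had 5 mice, 3 of them male and 2 female. Sex and treatment could therefore be told apart only by looking within male or female cells.

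The letters of the CRE are printed first for the members whose promoters hold them most often, the NR4A receptors and the growth factor gene Areg. The full palindromic CRE was searched as TGACGTCA and its core as TGACG, on both strands, in RefSeq promoter windows of 250 bases before to 50 bases after the start (build GRCm38.p6). A full site contains a core site on each strand. Of 32817 mouse promoter windows, 1.79% held the full site and 20.8% a core site. The 7 members with an entry in the promoter table were all but Crem. The stretches below run 5′ to 3′ along the gene from 250 bases before the start up to it, with the core or full sites in capitals (CGTCA is the core site on the other strand).
Nr4a1, chr15:101266596-101266845, plus strand: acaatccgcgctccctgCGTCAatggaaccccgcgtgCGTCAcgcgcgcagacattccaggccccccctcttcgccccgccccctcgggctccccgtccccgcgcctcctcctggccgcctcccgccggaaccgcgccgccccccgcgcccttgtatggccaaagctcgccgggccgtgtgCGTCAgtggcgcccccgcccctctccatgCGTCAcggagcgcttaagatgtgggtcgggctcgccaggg
Nr4a2, chr2:57124004-57124253, minus strand: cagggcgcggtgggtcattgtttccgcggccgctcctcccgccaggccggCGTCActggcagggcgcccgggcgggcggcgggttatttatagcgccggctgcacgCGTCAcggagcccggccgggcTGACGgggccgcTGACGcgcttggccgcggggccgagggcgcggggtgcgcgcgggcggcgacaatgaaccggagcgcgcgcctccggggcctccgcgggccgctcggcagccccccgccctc
Nr4a3, chr4:48045055-48045304, plus strand: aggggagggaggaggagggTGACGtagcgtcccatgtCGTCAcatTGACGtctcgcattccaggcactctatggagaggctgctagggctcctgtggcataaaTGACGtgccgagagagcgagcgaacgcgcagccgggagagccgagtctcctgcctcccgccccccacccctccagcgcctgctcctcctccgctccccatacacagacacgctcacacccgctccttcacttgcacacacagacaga
Areg, chr5:91139349-91139598, plus strand: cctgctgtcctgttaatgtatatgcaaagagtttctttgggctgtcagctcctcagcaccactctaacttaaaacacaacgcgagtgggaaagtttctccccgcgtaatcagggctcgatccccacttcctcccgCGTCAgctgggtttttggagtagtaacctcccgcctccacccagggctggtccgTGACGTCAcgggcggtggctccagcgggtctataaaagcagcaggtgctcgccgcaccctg

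Nr4a1, Nr4a2 and Nr4a3 each held 4 core sites and no full site in these windows. Areg held the only full site among the members, at position -61 from the start, and 1 further core site at -115. The promoter of Rgs2 (chr1:144004150-144004399, minus strand) had core sites at -185 and -67, and 1 of the 4 listed promoters of Pde4b had 1 at -34. None was found in the listed promoter of Pde4d. A match of letters is a description of the sequence in this window and says nothing of binding.

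**Figure D1:**
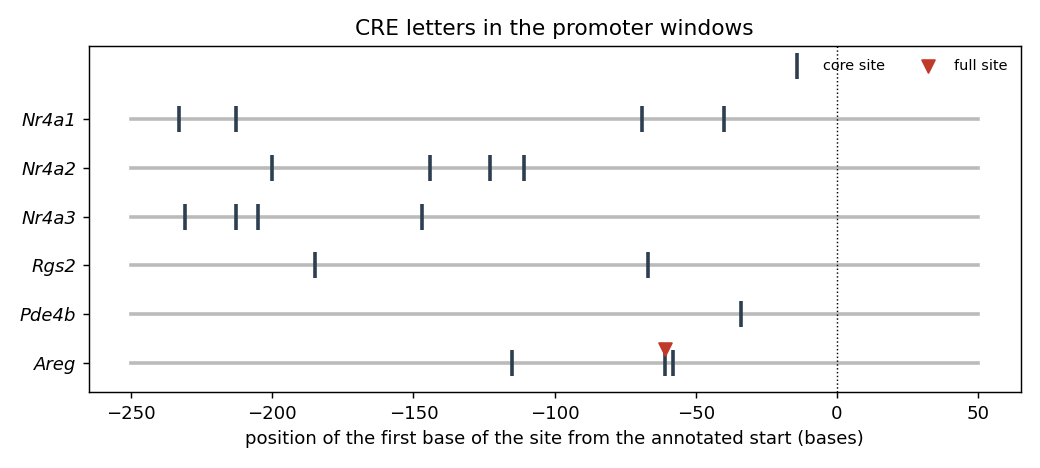
Positions of the CRE letters in the promoter windows of the 6 members that hold any. The horizontal axis is the distance in bases from the annotated start (dotted line), dark ticks are core sites on either strand and the red triangle is the full site, which is seen in Areg alone, at -61; for Pde4b the 1 window with a site is drawn.

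A level is the count of UMIs of a gene in every 1000000 UMIs captured (CPM), from the sum of all cells of a class and library, with the exact Poisson 95% interval, and levels are compared between classes or libraries of 1 gene, not between genes. As the first summary, a member was counted as measured in a class with at least 50 UMIs over both libraries, and as higher or lower when its CPM differed by 1.5-fold or more between the libraries. In COP-like cells 6 members were measured, of which 0 were higher and 1, Crem, was lower after teriparatide, at levels that were also seen in erythroid-like cells. Of all 9237 genes so measured in these cells 8.29% were higher and 17.1% lower. In OB-like cells 3 members were measured and 1, Nr4a2, was lower, beside 6.60% higher and 13.9% lower of all 6330 genes. In MALP-like cells 2 members were measured and neither passed the fold, beside 8.25% higher and 10.1% lower of 6884 genes. In preOB-like cells no member reached 50 UMIs, and 8.49% of 4371 genes were higher and 19.0% lower there. No measured member was past 1.5-fold higher in any of these classes a day after the last dose. With so few measured, a count of 0 does not set the members apart from all genes. Of all genes, 6.60% to 8.29% were higher in the classes with a measured member. The median log2 ratio over the members measured was 0.02 in the COP-like, -0.10 in the OB-like and 0.16 in the MALP-like cells, beside -0.20, -0.15 and -0.08 over all genes measured.

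**Figure D2:**
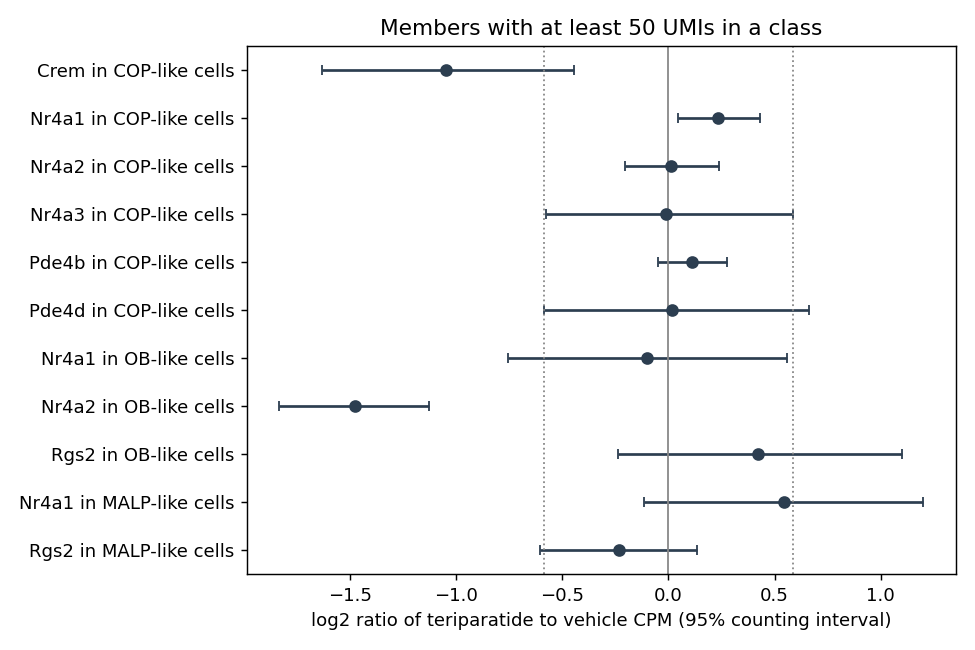
Log2 ratio of teriparatide to vehicle CPM for each member with at least 50 UMIs in a class; bars are conditional exact 95% intervals for counting error, the solid line is no difference and dotted lines are 1.5-fold. Crem in COP-like cells (-1.05) and Nr4a2 in OB-like cells (-1.47) lie past the dotted line, and the other 9 values do not.

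Crem (ENSMUSG00000063889, chromosome 18 from 3266048 to 3337748, minus strand) encodes the cAMP response element modulator, and a promoter inside the gene gives the short repressor known as ICER. The 3′ counts cannot tell ICER from the other forms. In COP-like cells Crem had 37 UMIs after vehicle and 79 after teriparatide, which is 20.4 CPM (14.4 to 28.2) and 9.88 CPM (7.82 to 12.3). It was lower after teriparatide by 2.07-fold, a log2 ratio of -1.05 (-1.63 to -0.44). No cell of either library held more than 3 of these UMIs, and without the 5 highest cells of each library the ratio was -0.79. A UMI of Crem was seen in 40.9% of the vehicle and 24.2% of the teriparatide COP-like cells, at a median of 28719 and 30922 UMIs per cell. In erythroid-like cells, taken as the background for such shares because free RNA gives UMIs in cells that do not express a gene, it was seen in 9.62% and 8.38%, at a median of 9360 and 10461 UMIs. After each cell was thinned at random to 3486 UMIs, so that depth was equal, the shares were 9.23% (3.46 to 19.0) and 4.21% (2.12 to 7.42) in COP-like cells and 6.06% (0.743 to 20.2) and 1.52% (0.184 to 5.37) in erythroid-like cells. The erythroid-like level was 18.8 CPM (9.04 to 34.7) after vehicle and 9.65 CPM (5.81 to 15.1) after teriparatide, from 10 and 19 UMIs, with a log2 ratio of -0.97 (-2.14 to 0.30). The CPM of Crem in COP-like cells and its ratio were thus close to those of the erythroid-like cells. The thinned shares had overlapping intervals, while the unthinned shares were higher in the deeper COP-like cells. Hemoglobin took 464582 and 478142 CPM of the erythroid-like sums, so that the CPM of the 2 classes are not on an equal footing. Whether Crem in COP-like cells was more than free RNA was not tested.

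The same direction was seen in male COP-like cells alone, at 20.9 and 9.06 CPM (log2 ratio -1.21, -1.85 to -0.54). In the female COP-like cells, 5 and 12 UMIs gave a ratio of -0.40 (-2.004 to 1.46). In OB-like cells Crem was at 12.3 CPM (8.19 to 17.8) and 6.88 CPM (4.08 to 10.9), but these are 46 UMIs in all and the interval of the ratio, -1.78 to 0.06, reached past 0. Within 1 sex the OB-like ratio was smaller or reversed. It was -0.18 (-1.72 to 1.63) in male cells, from 5 and 15 UMIs. In female OB-like cells 19 and 3 UMIs gave 0.42 (-1.97 to 2.19). In MALP-like cells the levels were 14.7 and 13.9 CPM. In preOB-like cells there were 4 and 9 UMIs. The largest levels of Crem lay outside the mesenchyme, in the B-like cells, at 129.8 CPM (59.3 to 246) and 129 CPM (80.1 to 198), and in the monocyte-like cells, at 135 CPM (92.6 to 191) and 46.0 CPM (37.3 to 56.0). In the monocyte-like cells too the level was lower after teriparatide (log2 ratio -1.56, -2.15 to -0.93), and the intervals did not overlap.

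The NR4A genes encode orphan nuclear receptors that are switched on without new protein synthesis by cAMP and by many other stimuli, Nr4a2 (Nurr1) being a known early PTH target in osteoblasts. Nr4a1 (ENSMUSG00000023034, chromosome 15 from 101254269 to 101274795, plus strand) was highest in the COP-like cells among the 4 mesenchymal classes. There it had 147 CPM (129.8 to 166) after vehicle and 173 CPM (164 to 182) after teriparatide, against 17.6 and 16.4 CPM in OB-like, 30.9 and 12.5 CPM in preOB-like and 25.1 and 36.5 CPM in MALP-like cells. Against the other 3 classes together, COP-like cells were higher by 2.72 on the log2 scale (2.39 to 3.06) after vehicle and by 3.05 (2.74 to 3.36) after teriparatide. COP-like cells came first of the 4 in both libraries, with an interval that overlapped with none of the other 3, whose own order was not the same in the libraries. A UMI was seen in 66.7% and 66.4% of COP-like cells, and in 35.4% and 32.6% after thinning. In erythroid-like cells the shares were 1.92% and 2.99%, and 0% and 0.758% after thinning (0 of 33 vehicle cells, with an upper limit of 10.6%).

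Between the libraries, Nr4a1 in COP-like cells differed by a log2 ratio of 0.24 (0.05 to 0.43), less than 1.5-fold. When each cell was given the same weight the ratio was -0.05, so that even its sign rested on how cells were weighted. In OB-like cells the ratio was -0.10 (-0.75 to 0.56) and in MALP-like cells 0.54 (-0.11 to 1.20). Split by sex, the MALP-like levels were 17.2 and 37.6 CPM in male cells (13 and 35 UMIs, log2 ratio 1.13, 0.17 to 2.17). Female cells, 66 and 7 in number, held 25 vehicle and 0 teriparatide UMIs. The upper limit of the female ratio was 0.65, which overlaps with the male interval. The MALP-like ratio of both sexes together was also past 1.5-fold after thinning, at 1.40 on 27 UMIs, and without cells with a hematopoietic marker, at 1.20 on 44 UMIs. In preOB-like cells 22 vehicle and 9 teriparatide UMIs gave 30.9 CPM (19.4 to 46.8) and 12.5 CPM (5.71 to 23.7), with a log2 ratio of -1.31 (-2.61 to -0.13) on fewer UMIs than the minimum. Male preOB-like cells alone went the other way, with 3 and 9 UMIs and a ratio of 0.79 (-1.21 to 3.31). Female preOB-like cells, 22 and 6 in number, held 14 vehicle and 0 teriparatide UMIs, with an upper limit of the ratio of -0.24. In the hypertrophic-like cells, 46 of the 60 UMIs of the teriparatide library sat in 1 cell, and the 7 vehicle cells held 0, which allows up to 32.1 CPM.

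Nr4a2 (ENSMUSG00000026826, chromosome 2 from 57106830 to 57124003, minus strand) gave the clearest difference between the libraries, and it lay in the osteoblasts. In OB-like cells it had 234 UMIs and 103 CPM (90.2 to 117) after vehicle, and 97 UMIs and 37.1 CPM (30.0 to 45.2) after teriparatide. The level was 2.78-fold lower after teriparatide, a log2 ratio of -1.47 (-1.83 to -1.13), and the intervals of the levels did not overlap. A UMI was seen in 61.5% (51.0 to 71.2) of 96 vehicle and 40.9% (30.8 to 51.5) of 93 teriparatide OB-like cells, although the median teriparatide cell was the deeper one, with 25465 against 17602 UMIs. After thinning to 3486 UMIs the shares were 29.8% (20.8 to 40.1) and 10.99% (5.40 to 19.3). The share of the UMIs held by the 5 highest cells was 27.4% after vehicle and 36.1% after teriparatide, and without these cells the ratio was -1.71. Within male OB-like cells, 30 after vehicle and 79 after teriparatide, the levels were 74.6 and 38.1 CPM (log2 ratio -0.97, -1.49 to -0.44). In female OB-like cells 58 vehicle cells held 167 UMIs and the 5 teriparatide cells 0.

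In COP-like cells Nr4a2 did not differ between the libraries by more than its counting error, at 114 CPM (98.7 to 130.4) and 115 CPM (108 to 123), a log2 ratio of 0.01 (-0.21 to 0.24). After vehicle 53.9% of its UMIs came from 5 of 66 cells, against 17.1% from 5 of 265 cells after teriparatide. Without the 5 highest cells of each library the ratio was 0.77, but this leaves out a larger share of the 66 vehicle than of the 265 teriparatide cells. With the same weight for each cell the ratio was -0.04, without the 5% deepest cells -0.02, and after thinning -0.52 on 118 UMIs. After vehicle OB-like and COP-like cells had overlapping intervals for Nr4a2, and after teriparatide the COP-like level was about as before while the OB-like level was far below it. Nr4a2 was low in preOB-like cells, at 18.3 and 22.2 CPM (13 and 16 UMIs), and in MALP-like cells, at 12.8 and 13.04 CPM (21 and 15 UMIs). Both fell short of the minimum of UMIs. With each cell classed by a marker score instead, the preOB-like log2 ratio was -2.23 on 61 UMIs, so that the near equality there depended on how cells were classed. Monocyte-like cells had the most, 326 CPM (257 to 407) and 348 CPM (323 to 374).

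Nr4a3 (ENSMUSG00000028341, chromosome 4 from 48045153 to 48086447, plus strand) was scarce in the mesenchyme. COP-like cells had 32 and 140 UMIs, 17.7 CPM (12.1 to 24.9) after vehicle and 17.5 CPM (14.7 to 20.7) after teriparatide, with a log2 ratio of -0.01 (-0.58 to 0.59). With the same weight for each cell the ratio was -1.04, so that this near equality rested on the weighting by depth. In MALP-like cells there were 38 vehicle and 6 teriparatide UMIs, 23.2 CPM (16.4 to 31.9) and 5.22 CPM (1.91 to 11.4), a log2 ratio of -2.15 (-3.69 to -0.90). These 44 UMIs fell short of the minimum of 50, and 12 of the 38 vehicle UMIs sat in 1 cell. Within male MALP-like cells 10 and 6 UMIs gave a ratio of -1.04 (-2.78 to 0.56). Female MALP-like cells, 66 and 7 in number, held 16 and 0 UMIs, with an upper limit of the ratio of 1.36. Neither sex alone thus excluded an equal level. OB-like cells had 9 and 1 UMIs. As for the other NR4A genes the highest levels were in monocyte-like cells, 203 CPM (150 to 269) and 109 CPM (95.2 to 124).

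The collagenase digestion at warm temperature that frees cells from bone is known to switch on immediate-early and heat-shock genes, and the NR4A genes are among the genes so induced. A list of 19 such genes (Fos, Fosb, the Jun genes, Egr1, Atf3, Hspa1a and others, without the members) was therefore set beside them. Summed, the list had 27911 CPM after vehicle and 25694 CPM in the teriparatide COP-like cells. In OB-like cells it had 7168 and 2277 CPM, in preOB-like cells 3823 and 2084 CPM, and in MALP-like cells 9597 and 4993 CPM. In OB-like cells all 19 of the 19 genes were lower after teriparatide by 1.5-fold or more, with a median log2 ratio of -1.33. In MALP-like cells 12 of 19 were lower, with a median of -0.94, in preOB-like cells 11 of 18 with a median of -0.71, and in COP-like cells 1 of 19, with a median of -0.05. Of all genes measured, 13.9% were lower in OB-like, 10.1% in MALP-like, 19.0% in preOB-like and 17.1% in COP-like cells. The ratio of Nr4a2 in OB-like cells thus stood inside the range of this list, which ran from -5.19 to -0.65, and in COP-like cells both the list's median and the ratio of Nr4a2 were near 0. Over both sexes together, Nr4a1 did not follow the list in the same way. Its ratio in OB-like cells, -0.10 (-0.75 to 0.56), lay above that range. Split by sex, Nr4a1 was lower in both. The ratio was -0.48 (-1.36 to 0.45) in male OB-like cells, from 16 and 39 UMIs. In female OB-like cells 19 and 1 UMIs gave -1.16 (-6.54 to 1.49), which lay inside the range. Both intervals overlapped with the range and reached past 0. In MALP-like cells the ratio of Nr4a1, 0.54 (-0.11 to 1.20), lay above the highest of the list there, -0.10. Within male OB-like cells the list had 7431 CPM after vehicle and 2329 CPM after teriparatide, and within female ones (58 and 5) 7328 and 1597 CPM. In COP-like cells it had 25808 and 26864 CPM in male and 40803 and 15588 CPM in female cells (11 and 25). The near equality in COP-like cells was thus seen in male but not in female cells. Nr4a2 in the female COP-like cells was at 77.8 and 85.6 CPM, from 21 and 73 UMIs. PreOB-like cells had 2259 and 1929 CPM in male and 4399 and 2362 CPM in female cells (22 and 6). MALP-like cells had 8783 and 5133 CPM in male and 10445 and 2929 CPM in female cells (66 and 7). In OB-like cells Hspa1a, a heat-shock gene, was at 1081 and 163 CPM and Atf3, an immediate-early factor, at 139 and 3.82 CPM. The part of this in the Nr4a1 and Nr4a2 results was not tested.

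**Figure D3:**
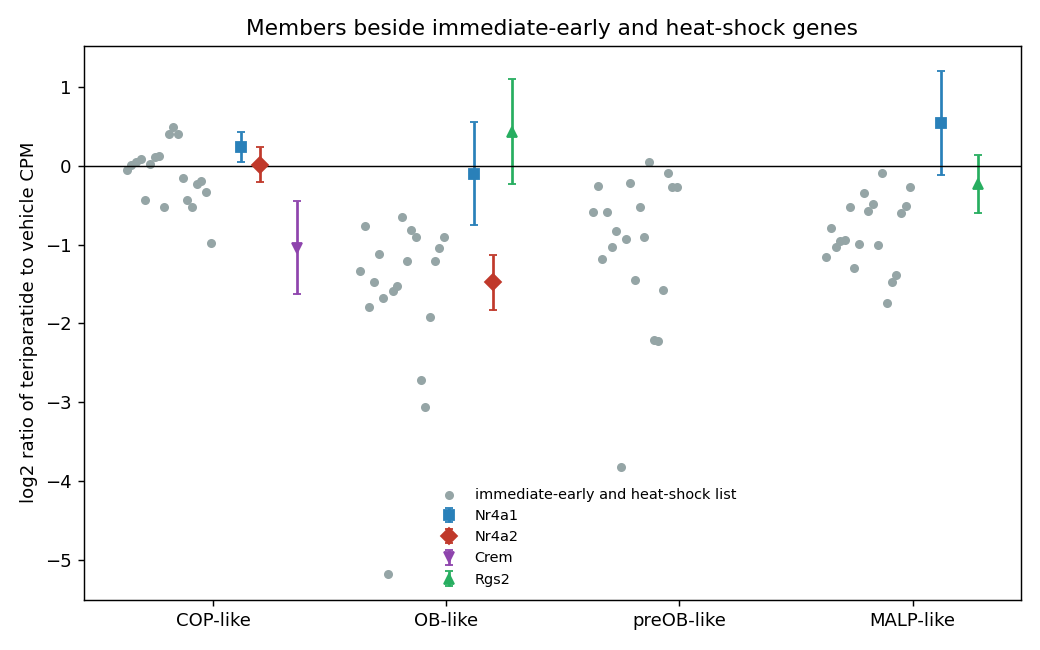
Log2 ratio of teriparatide to vehicle CPM in the 4 mesenchymal classes for each gene of the immediate-early and heat-shock list (grey dots) and for Nr4a1, Nr4a2, Rgs2 and Crem where they had at least 50 UMIs (coloured, with 95% counting intervals). In OB-like cells every grey dot is below 0 and Nr4a2, at -1.47, lies among them, while Nr4a1 and Rgs2 lie near 0.

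Pde4b and Pde4d encode phosphodiesterases that break down cAMP, and cells raise PDE4 expression as feedback after cAMP rises. Pde4b (ENSMUSG00000028525, chromosome 4 from 102087543 to 102607259, plus strand) was found almost entirely in the COP-like cells among the 4 classes. It had 384 UMIs and 212 CPM (191 to 234) after vehicle, and 1833 UMIs and 229 CPM (219 to 240.0) after teriparatide. OB-like cells held 0 UMIs in 96 vehicle cells, which allows up to 1.32 CPM, and 1 UMI in 93 teriparatide cells. The level was 5.62 and 11.1 CPM in preOB-like cells, and in MALP-like cells it was 10.4 and 2.61 CPM (17 and 3 UMIs, log2 ratio -1.99, -4.41 to -0.20), beside 15.1 and 1.52 CPM in erythroid-like cells. All 8 vehicle UMIs of the erythroid-like cells sat in 1 of 52 cells, while the 17 of the MALP-like cells lay in 12 of 125. Of those 17 UMIs, 13 sat in the 66 female cells, while the 7 female teriparatide cells held 0. The upper limit of the female MALP-like ratio was 1.70. COP-like cells were thus above the other 3 classes together by 5.54 (4.91 to 6.25) and 6.42 (5.61 to 7.38) on the log2 scale. A UMI was seen in 81.8% and 81.9% of COP-like cells, and after thinning in 40.0% and 41.0%. In thinned erythroid-like cells it was seen in 3.03% and 0%. Other hematopoietic cells had much Pde4b, with 216 and 142 CPM in B-like, 203 and 123 CPM in monocyte-like and 114 and 65.9 CPM in neutrophil-like cells. After vehicle the B-like and monocyte-like intervals overlapped with that of COP-like cells.

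The summed Pde4b level of COP-like cells differed little between the libraries, with a log2 ratio of 0.11 (-0.05 to 0.28). Split by sex, it was 0.15 (-0.03 to 0.32) in male cells. In the female cells, 11 and 25 in number, 57 and 123 UMIs gave -0.55 (-1.01 to -0.07). Pde4d (ENSMUSG00000021699, chromosome 13 from 108449948 to 109953461, plus strand) was at 15.5 CPM (10.3 to 22.3) and 15.6 CPM (13.02 to 18.6) in COP-like cells, a ratio of 0.02 (-0.58 to 0.66). In MALP-like cells 17 vehicle and 2 teriparatide UMIs gave 10.4 CPM (6.05 to 16.6) and 1.74 CPM (0.211 to 6.28). The log2 ratio was -2.58 (-5.74 to -0.50), from 19 UMIs in all. Of the 17 vehicle UMIs, 11 sat in the 66 female cells, while the 7 female teriparatide cells held 0. The upper limit of the female ratio was 1.98, so that sex and treatment cannot be told apart in this value. The granulocyte-monocyte progenitor-like cells (GMP-like) had the most Pde4d, 60.1 CPM (30.0 to 108) and 59.3 CPM (48.6 to 71.8), and the monocyte-like cells, which led for the NR4A genes, had 4.23 and 2.81 CPM.

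**Figure D4:**
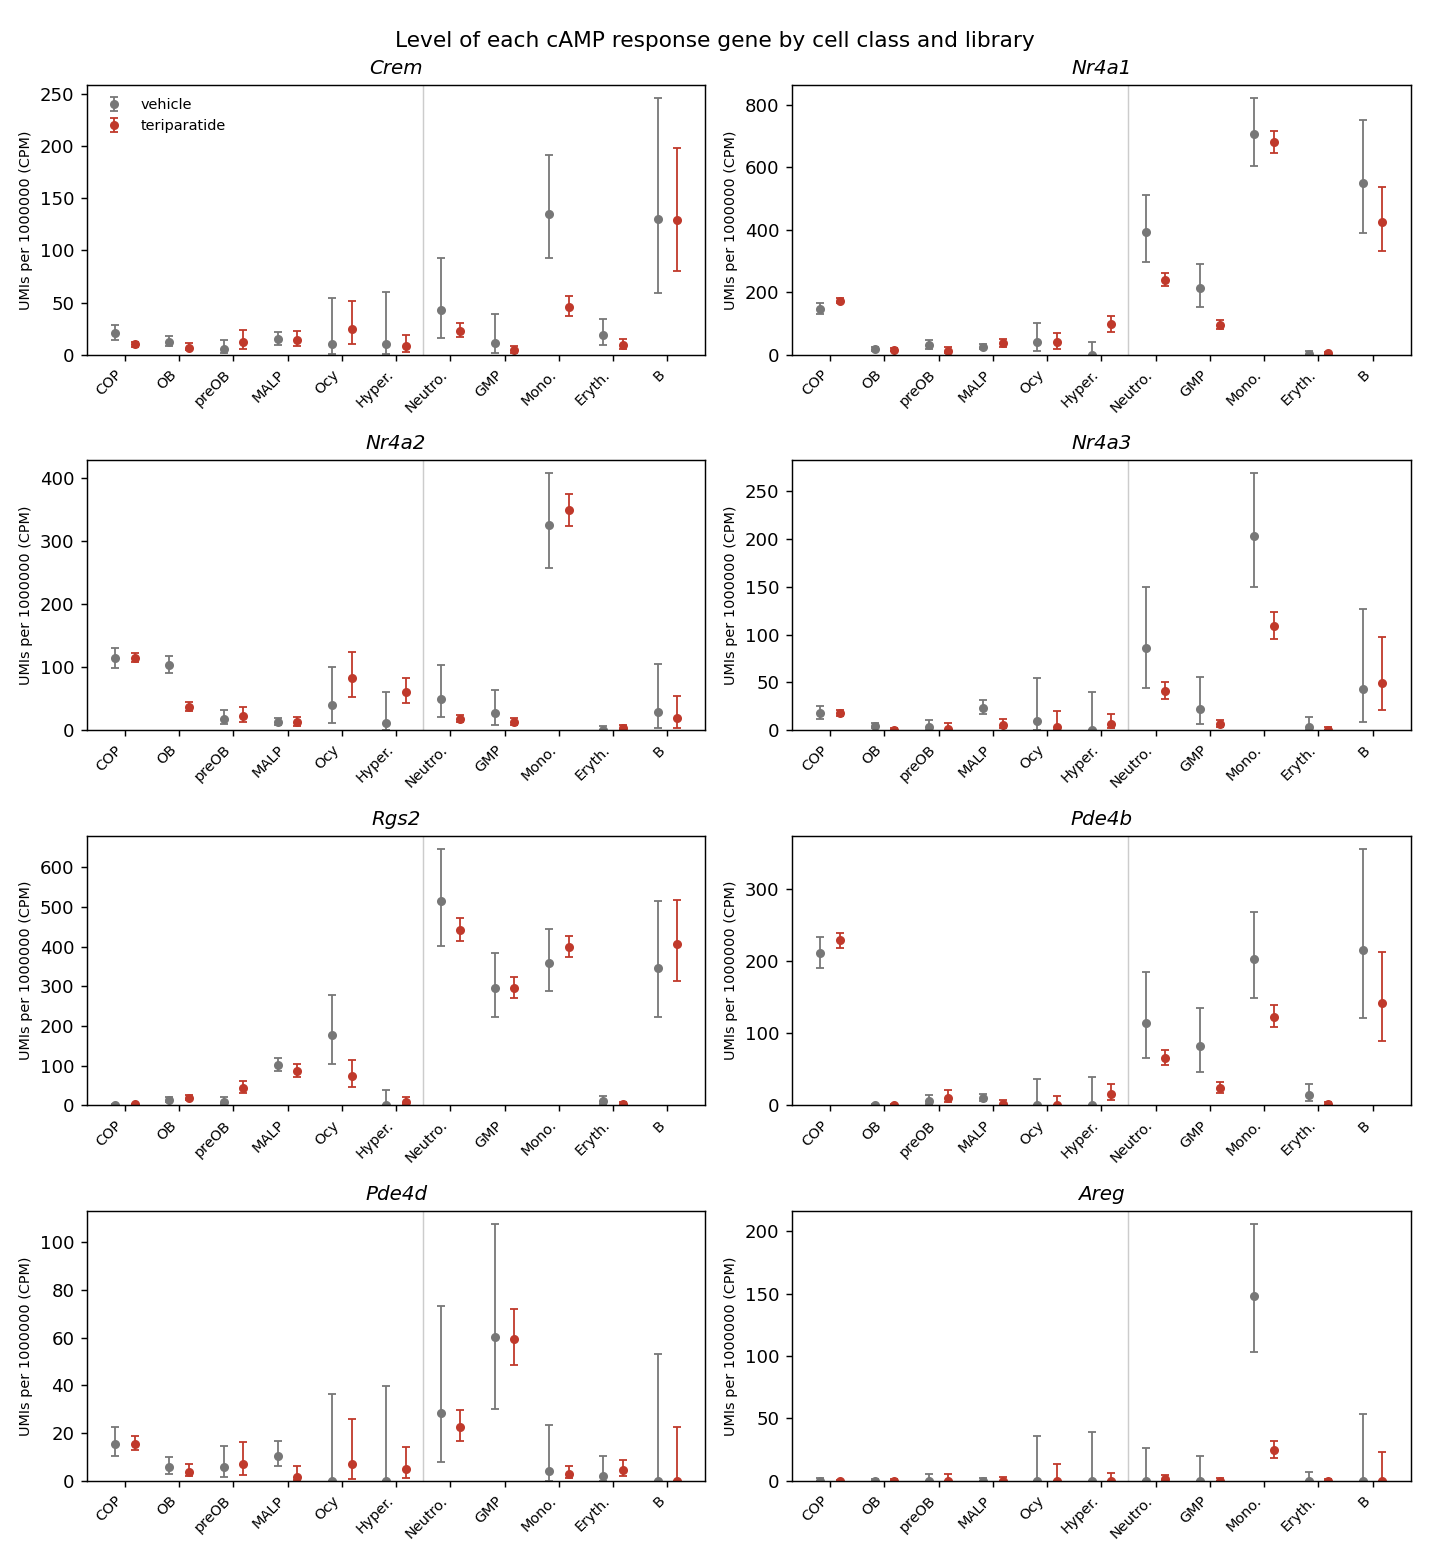
CPM of each member by cell class (horizontal axis; classes right of the grey line are hematopoietic) in the vehicle (grey) and teriparatide (red) libraries, with exact Poisson 95% intervals; each panel has its own vertical scale. Pde4b and Nr4a1 stand out in COP-like cells among the mesenchymal classes, Rgs2 in MALP-like and Ocy-like cells, and Areg in monocyte-like cells.

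The COP-like class joined 3 clusters, and the members were not spread evenly over them. A cluster led by Ppa1, Ndufa4l2 and Slc16a3 held 34 vehicle and 103 teriparatide cells, one led by Cpm, Meg3 and Sfrp5 held 25 and 100, and one led by Stc2, Chad and Il6ra held 7 and 62. The members had been kept out of the genes that shaped the clusters. In the Cpm-led cluster Pde4b stood at 352 CPM (306 to 403) and 342 CPM (320.1 to 365), Nr4a1 at 266 CPM (227 to 311) and 275 CPM (255 to 295), and Nr4a2 at 179 and 189 CPM, so that this cluster was high and near equal in both libraries. In the Ppa1-led cluster Nr4a1 had 90.0 CPM (72.6 to 110.2) and 94.9 CPM (85.2 to 106) and Nr4a2 57.1 and 61.7 CPM, also near equal in the libraries but below the Cpm-led cluster.

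Pde4b behaved differently in the Ppa1-led cluster, where it had 105 CPM (86.6 to 127) after vehicle and 172 CPM (159 to 187) after teriparatide, a log2 ratio of 0.71 (0.41 to 1.02). This cluster also held nearly all UMIs of the proliferation gene Top2a, whose level there was 31.0 CPM after vehicle and 98.0 CPM after teriparatide. The share of its cells with a UMI of Top2a was nearly the same, 17.6% and 18.4%. Whether proliferation had a part in the Pde4b value was not tested. In the Stc2-led cluster the order was the reverse, 360 CPM (278 to 459) after vehicle against 174 CPM (155 to 195) after teriparatide, which is a log2 ratio of -1.05 (-1.44 to -0.64), but the vehicle value came from 7 cells. In the same cluster Nr4a1 was at 77.6 CPM (42.4 to 130) and 179 CPM (160 to 200.3), and Nr4a2 at 222 CPM (158 to 302) and 112 CPM (96.7 to 129). Crem was lower after teriparatide in the Cpm-led (23.5 and 8.62 CPM) and Ppa1-led clusters (19.3 and 9.69 CPM), and rested on 3 vehicle UMIs in the third.

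**Figure D5:**
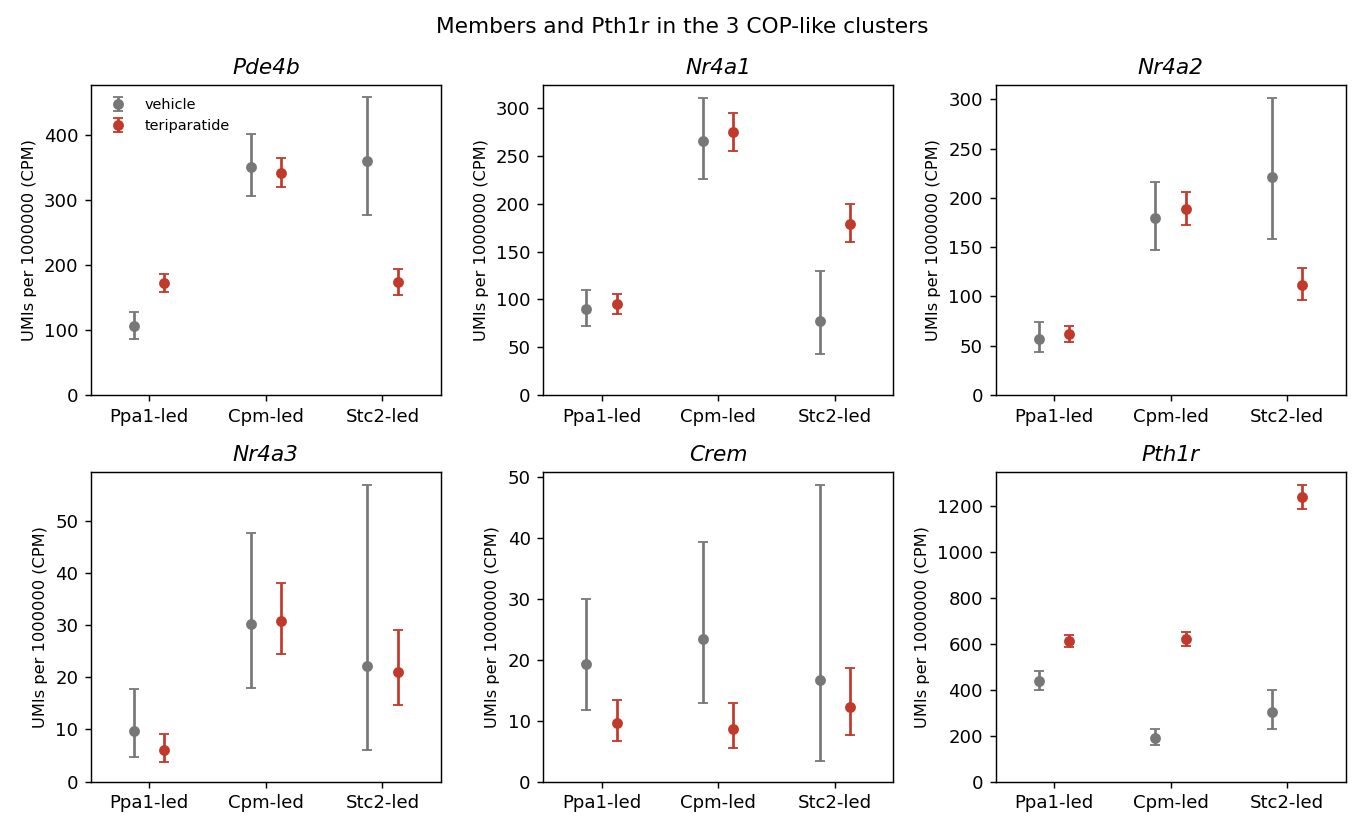
CPM of 5 members and of the receptor gene Pth1r in the 3 clusters that make up the COP-like cells, named by a leading gene, in the vehicle (grey) and teriparatide (red) libraries with exact Poisson 95% intervals. Pde4b is higher after teriparatide in the Ppa1-led cluster (105 and 172 CPM) and lower in the Stc2-led cluster (360 and 174 CPM, 7 vehicle cells), and Pth1r is higher in all 3.

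Rgs2 (ENSMUSG00000026360, chromosome 1 from 143999338 to 144004161, minus strand) encodes a regulator of G protein signaling that dampens Gq and Gs signals and is a known PTH target in osteoblasts. Among the 4 mesenchymal classes it was lowest in COP-like cells, where Pde4b and Nr4a1 were highest, while in monocyte- and neutrophil-like cells Rgs2 and Nr4a1 were both high. COP-like cells held 2 UMIs after vehicle and 23 after teriparatide, 1.10 CPM (0.134 to 3.99) and 2.88 CPM (1.82 to 4.32). The OB-like level was 14.5 CPM (9.99 to 20.4) after vehicle and 19.5 CPM (14.5 to 25.6) after teriparatide, and with a log2 ratio of 0.42 the intervals overlapped. In MALP-like cells the level was 102 CPM (87.1 to 119) after vehicle and 86.9 CPM (70.7 to 106) after teriparatide, so that the log2 ratio was -0.23. COP-like cells were below the other 3 classes together by a log2 difference of -5.34 (-8.40 to -3.47) after vehicle and -3.82 (-4.52 to -3.19) after teriparatide.

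Male and female MALP-like cells gave opposite values for Rgs2. In male cells, 51 after vehicle and 62 after teriparatide, it had 34 UMIs and 45.1 CPM against 95 UMIs and 102 CPM, a log2 ratio of 1.18 (0.60 to 1.79). In female cells, 66 vehicle cells held 108 UMIs (136 CPM) and 7 teriparatide cells held 1 UMI (12.4 CPM), a ratio of -3.45 (-8.77 to -0.94). The male value is past 1.5-fold in the direction of more Rgs2 after teriparatide, and the female value rests on 1 UMI. Over both sexes, the 5 highest MALP-like cells held 48.5% of the vehicle and 44% of the teriparatide UMIs of Rgs2. Male OB-like cells had 26.9 and 21.9 CPM, a ratio of -0.30 (-1.10 to 0.57).

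PreOB-like cells held 7 vehicle and 32 teriparatide UMIs of Rgs2, 9.84 CPM (3.96 to 20.3) and 44.4 CPM (30.3 to 62.6), with a log2 ratio of 2.17 (0.97 to 3.597). With 39 UMIs this stayed below the minimum, and 13 of the 32 teriparatide UMIs sat in 1 of 52 cells. With a mitochondrial limit of 20% there were 61 UMIs and the ratio was 0.60, so that the size of this difference depended on which cells were kept. The Ocy-like cells (osteocyte markers, 17 and 37 cells) stood at 177 CPM (105 to 279) after vehicle against 74.97 CPM (46.4 to 115) after teriparatide, a log2 ratio of -1.24 (-2.22 to -0.24) from 39 UMIs. Hematopoietic cells had far more, 514 and 443 CPM in neutrophil-like and 359 and 399.5 CPM in monocyte-like cells.

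Areg (ENSMUSG00000029378, chromosome 5 from 91139599 to 91148432, plus strand) encodes amphiregulin, a ligand of the epidermal growth factor receptor and a known early PTH target in osteoblasts. It was all but undetected in the mesenchymal cells. COP-like cells held 0 UMIs in 66 vehicle cells, which allows up to 1.66 CPM and a share of up to 4.55% of cells with a UMI, and 1 UMI in 265 teriparatide cells. The other 3 classes held 0 UMIs in both libraries, and in OB-like cells this allows up to 1.32 and 1.15 CPM. The transcript was nonetheless captured by the assay, since monocyte-like cells held 35 UMIs (148 CPM, 103 to 206) after vehicle and 52 UMIs (24.4 CPM, 18.2 to 32.0) after teriparatide. Those UMIs were uneven: 32 of the 35 vehicle UMIs sat in 1 of 22 cells and 26 of the 52 teriparatide UMIs in 1 of 149 cells.

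Hematopoietic transcripts in the mesenchymal classes also differed between the libraries. Hemoglobin transcripts in COP-like cells were at 16.0 CPM after vehicle and 85.6 CPM after teriparatide, and S100a8 with S100a9, the neutrophil calprotectin genes, at 8.28 and 107 CPM. In OB-like cells hemoglobin was at 16.7 and 132 CPM and S100a8 with S100a9 at 5.72 and 146 CPM. A UMI of any of 40 hematopoietic marker genes other than these was seen in 35 of 66 and 206 of 265 COP-like cells, and in 29 of 96 and 71 of 93 OB-like cells. Without those cells, the part of whose RNA in the results was not otherwise tested, the log2 ratio of Nr4a2 in OB-like cells was -2.41, that of Crem in COP-like cells -0.77 on fewer than 50 UMIs, that of Pde4b in COP-like cells -0.31 and that of Nr4a1 in COP-like cells 0.44.

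The upstream pathway was described with a list of 24 genes of the receptor, Gs, adenylyl cyclases, protein kinase A, its inhibitors, Epac proteins and arrestins. Of these 13 were measured in COP-like cells, 2 were higher and 2 lower, with a median log2 ratio of -0.25. Pth1r, the PTH receptor itself, had 343 CPM after vehicle and 747 CPM in the teriparatide COP-like cells, a ratio of 1.12 (1.00 to 1.25), and Rapgef4, which encodes the cAMP sensor Epac2, had 7.73 and 17.9 CPM. Prkaca, a catalytic subunit of protein kinase A, had 23.7 and 15.8 CPM. Pth1r was nearly the same in both libraries in the other 3 mesenchymal classes compared, with 508 and 524 CPM in OB-like, 554 and 502 CPM in preOB-like, and 118 and 136 CPM in MALP-like cells. It was lower after teriparatide in the smaller Ocy-like (403 and 193 CPM, log2 ratio -1.06, -1.68 to -0.44) and hypertrophic-like groups (2282 and 1543 CPM, log2 ratio -0.56, -0.78 to -0.34). Gnas, the Gs alpha subunit, was at 1396 and 1064 CPM in COP-like, 1504 and 1250 CPM in OB-like, 1271 and 907 CPM in preOB-like and 856 and 769 CPM in MALP-like cells. In the other classes 0 of 10 genes in OB-like, 1 of 9 in preOB-like (Prkacb, a further catalytic subunit, higher) and 2 of 14 in MALP-like cells (Rapgef4 higher and Arrb1, an arrestin that quenches the receptor, lower) passed 1.5-fold. Of all genes measured, 8.29% were higher and 17.1% lower in COP-like cells, and 6.60% and 13.9% in OB-like cells. In preOB-like cells these shares were 8.49% and 19.0%, and in MALP-like cells 8.25% and 10.1%. They are the background for the counts of this list and of the lists below. The genes of this list and of the lists below were not split by sex. Sex and treatment cannot be told apart in their ratios, least of all in OB-like and MALP-like cells.

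Of 7 genes of CREB and its coactivators, all 7 were measured in COP-like cells and 0 passed 1.5-fold. Atf1, a close relative of CREB, was lower in OB-like cells (37.8 and 24.8 CPM) and in MALP-like cells (70.9 and 42.6 CPM), the 1 gene of the list to pass in either class. Among 14 other cAMP phosphodiesterases, 0 of 6 measured passed in COP-like cells. In OB-like cells Pde7b was higher (12.8 and 21.4 CPM) and Pde1a lower (26.0 and 16.0 CPM) of 3 measured, and in MALP-like cells Pde2a was higher (34.2 and 52.2 CPM) of 4. Among 14 other RGS genes, 0 of 3 passed in COP-like and 0 of 2 in OB-like cells. Rgs5, a marker of mural cells, was higher in preOB-like cells (532 and 1472 CPM, log2 ratio 1.47, 1.30 to 1.64), and Rgs16 in MALP-like cells (27.5 and 44.3 CPM).

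The EGF family, to which Areg belongs, had 3 of its other 11 listed genes measured in COP-like cells. The ligand genes Tgfa (33.7 and 19.1 CPM) and Hbegf (203 and 133 CPM) were lower after teriparatide by 1.5-fold or more, and 0 were higher. Egfr, the receptor that Areg binds, was lower in MALP-like cells (76.4 and 50.4 CPM). In OB-like and preOB-like cells no gene of the family reached 50 UMIs.

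Other known cAMP targets differed between the libraries in directions that depended on the class. Of 14 listed, 9 were measured in COP-like cells, of which 2 were higher and 1 lower. Per1, a clock gene with CREs, had 20.4 CPM after vehicle and 43.4 CPM in the teriparatide COP-like cells (log2 ratio 1.09, 0.60 to 1.62), and in OB-like cells 10.1 and 17.2 CPM. Tnfsf11, which encodes the osteoclast factor RANKL, had 0 UMIs in vehicle COP-like cells, which allows up to 1.66 CPM, and 65 UMIs (8.13 CPM) after teriparatide. It was also higher in preOB-like cells, at 87.2 and 177 CPM. In MALP-like cells, which had the most of the 4 classes, it was lower, at 750.3 and 373 CPM (log2 ratio -1.01, -1.17 to -0.85). Mmp13, a collagenase gene induced by PTH, was lower in COP-like cells (844 and 70.2 CPM, log2 ratio -3.59) and higher in OB-like cells (5.72 and 167 CPM), in preOB-like cells (2624 and 4449 CPM) and in MALP-like cells (2536 and 5431 CPM). Cebpb, a transcription factor gene, was lower in MALP-like cells (675 and 199 CPM), and Nfil3, a transcriptional repressor, was lower in MALP-like (80.7 and 34.8 CPM) and OB-like cells (14.5 and 6.49 CPM). In all 2 genes were higher and 3 lower of 6 measured in OB-like cells, 2 and 0 of 3 in preOB-like cells, and 3 and 3 of 7 in MALP-like cells. The shares of all genes given with the upstream list are the background for these counts too.

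Across the 22 profiles of 11 classes in 2 libraries, the members shared parts of their pattern. Pearson correlations of log2(CPM + 1) are given as a description, since the profiles share 2 libraries and differ widely in depth. Nr4a3 and Nr4a1 were the most alike of the pairs of members, with r = 0.88, and Pde4b followed both (0.80 with Nr4a3 and 0.78 with Nr4a1). Pde4d was near 0 or negative against Crem (-0.34) and Areg (-0.04) and at most 0.29 against any other. Of 12302 genes, those most like Nr4a2 were Fos (0.79), Klf4 (0.78) and Zfp36 (0.78), all 3 of the immediate-early list. Nr4a1 was closest to Kdm6b (0.91), Nabp1 (0.90) and Csrnp1 (0.89), and Rgs2 to Slc9a3r1 (0.93), Fli1 (0.90) and Lyn (0.89). Crem was closest to Pecam1 (0.88), P2ry10 (0.88) and Dusp2 (0.86), Pde4b to Vps37b (0.91), Gng2 (0.88) and Cmip (0.87), and Pde4d to Syne1 (0.88), Fam101b (0.86) and Dmxl2 (0.84). Beside Nr4a1, Nr4a3 was closest to Sde2 (0.88) and Mcl1 (0.88). The likeness of Areg to Cd300c (0.99), Adgrg5 (0.99) and Cma1 (0.98) rested on the monocyte-like profiles, almost the only ones with Areg.

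Within COP-like cells thinned to 3486 UMIs, Nr4a1 was seen more often in cells with a UMI of Nr4a2 or Pde4b than in those without. After teriparatide, Nr4a1 was seen in 52.6% of the 57 cells with Nr4a2 and in 26.96% of those without, and in 47.7% of the 107 cells with Pde4b and in 22.1% of those without. Among the 65 vehicle cells the shares were 43.8% and 32.7% for Nr4a2, and 42.3% and 30.8% for Pde4b. Crem was seen in 3.51% of the teriparatide cells with Nr4a2 and in 4.41% of those without, from 11 cells in all. For the immediate-early gene Fos, Nr4a1 was seen in 34.3% of the teriparatide cells with Fos and in 6.25% of those without, and Pde4b in 42.9% and 12.5%. The shares without Fos rest on few cells, since 245 of the 261 teriparatide cells and 60 of the 65 vehicle cells had it. These shares come from 1 random draw of sparse counts, and the clusters of the class also differ in the levels of these genes; their part in the shares was not tested.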

How the data were processed

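Single cells of 1 vehicle and 1 teriparatide library were counted. Per the labels, the authors made the deposited values with Cell Ranger 2.1.0 on mm10 (the matrix header names software 3.1.0). The deposited values are raw UMI counts per gene and cell that the authors did not normalize, with 1 sample per condition. Each group had 5 mice (3 male, 2 female) in the study's methods; how much each gave to its library is not given in the sources used here.

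Cells with 200 to 6000 genes and at most 10% mitochondrial UMIs were kept, as in the study's methods (55.8% of vehicle and 40.2% of teriparatide barcodes exceeded the mitochondrial limit). They were integrated and clustered in 2 rounds with Seurat 5.3.0 in R 4.3.3 (20 principal components, resolution 0.6, 2000 variable genes without any listed gene), with hematopoietic clusters set aside after the first. Any remaining cell with a UMI of Ptprc, which encodes CD45, was also left out of the second round. The part of this filter in the results was not tested. No doublet caller was run. A cluster was named with at least 3 of a class's markers, each in at least 10% of its cells and above the mean of the other clusters, and is called "like" that class. A low-depth cluster of 51 vehicle and 56 teriparatide cells stayed unnamed.

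Sums, exact Poisson, Clopper-Pearson and conditional exact binomial intervals (95%) were computed with Python 3.11.15 and scipy 1.17.1, and the ratio script was tested on simulated data. A count of 0 allows up to 3 UMIs or cells. A gene counted as measured at 50 UMIs in a class over both libraries, and as higher or lower at 1.5-fold. Gene positions come from GENCODE vM21 (GRCm38). The sex of a cell was called from UMIs of 4 Y-linked genes (male) or of Xist (female), and not called with both or neither.

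All 8 members were named in every class; from each pathway list and class, up to 3 genes with the largest change past 1.5-fold were named, with Pth1r and Gnas always; and for likeness the 3 genes with the highest correlation. The members and lists were chosen with earlier results of these data known. The alternatives tried were centring, a 20% mitochondrial limit, resolution 1.0, a class by marker score, equal cell weights, thinning, cells of 1 sex, leaving out the deepest cells, the highest cells or cells with hematopoietic markers, a minimum of 10 UMIs and a fold of 2.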

Additional observations from a re-analysis of the deposited data

Results flagged for a closer look

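Rgs2 in MALP-like cells was flagged because its ratio of teriparatide to vehicle lay past 1.5-fold in opposite directions in the sexes. The log2 ratio was 1.18 (0.60 to 1.79) in male cells and -3.45 (-8.77 to -0.94) in female cells, the latter with 1 UMI in 7 teriparatide cells. The difference between the sexes was not tested, since there was 1 library per condition.

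Pde4b was flagged because its ratio differed in direction between clusters of the COP-like class. The log2 ratio was 0.71 (0.41 to 1.02) in the Ppa1-led cluster and -1.05 (-1.44 to -0.64) in the Stc2-led cluster, which held 7 vehicle cells. This difference was not tested either.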

How the results depend on the processing

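Crem in COP-like cells and Nr4a2 in OB-like cells stayed lower in the teriparatide library under each alternative that gave a value (the clusters taken singly were added after seeing the data), with log2 ratios from -1.44 to -0.40 and from -2.41 to -0.97. Of 104 counts of members, 87 stayed as reported, but many of these could hardly move and the tally is no measure of robustness. In preOB-like cells no member was measured, a fold of 2 cannot raise a count, and thinning or 1 sex leaves fewer members measured. Resolution 1.0 left the ratios of the measured members unchanged. In COP-like cells the count of members higher, 0 as reported, was 1 without the 5 highest cells of a member (Nr4a2) and 1 with a minimum of 10 UMIs (Rgs2). The count lower, 1 as reported, was 2 with equal cell weights (Nr4a3 joined, at a log2 ratio of -1.04), and 0 after thinning, in female cells only and without cells with a hematopoietic marker, where fewer UMIs of Crem than the minimum were left. In OB-like cells the count higher, 0 as reported, was 1 without the 5% deepest cells (Rgs2), and the count lower, 1 as reported, was 0 after thinning (48 UMIs of Nr4a2 left) and 3 with a minimum of 10 UMIs (Crem and Nr4a3 joined). In preOB-like cells, with 0 as reported both ways, the count higher was 1 with the mitochondrial limit of 20% (Rgs2, at a log2 ratio of 0.60 in place of 2.17) and 3 with a minimum of 10 UMIs (Crem, Rgs2 and Pde4b), and the count lower was 1 with a class by marker score (Nr4a2) and 1 with a minimum of 10 UMIs (Nr4a1). In MALP-like cells, also with 0 both ways, the count higher was 1 with ratios centred on the median of all genes (Nr4a1) and 1 in male cells only (Rgs2), and the count lower was 1 in female cells only (Rgs2) and 3 with a minimum of 10 UMIs (Nr4a3, Pde4b and Pde4d). The causes of these moves were not tested. The share of all genes past the fold was computed under the main settings only. The counts under the alternatives therefore have no background to be read against. With a minimum of 10 UMIs, counting error alone can carry a gene past 1.5-fold. The thinned values come from 1 random draw and rest on few UMIs, 17 for Crem in COP-like cells. No paired analysis was possible because there was 1 library per condition. The depth limits members with few UMIs most: no member was measured in preOB-like cells, and there was no replicate to set the libraries' spread.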
